A study of Homo sapiens with 9 samples.

Results

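The 9 genes described here encode the signalling parts of the T-cell receptor (TCR): CD3D, CD3E, CD3G and CD247 (the CD3 chains), PTCRA (the pre-TCR alpha chain), the kinases LCK and ZAP70, the adaptor LAT and the phosphatase PTPRC (CD45). They were taken by name as listed genes, 9 of the 20037 protein-coding genes of the RefSeq GRCh38.p14 table. For each, peaks were counted in the gene body and 50 kb to each side, called the window below. All samples are ChIP-seq libraries of RPMI-8402, a human T-cell acute lymphoblastic leukaemia line, in which antibody-bound, formaldehyde-fixed chromatin fragments are sequenced and enriched stretches are called as peaks. An antibody to the homeodomain factor NKX2-1 (ab76013) was used on 4 NKX2-1 knockout (KO) clones, C12, C15, S04 and S36, and on 4 wild-type (WT) clones, WT10, WT13, WT28 and WT30, with 1 library per clone. For the KO clones the genotype field reads only NKX2-1; that they are knockouts is taken from the design text. 1 further library used an antibody to histone H3 acetylated at lysine 27 (H3K27ac); its genotype field reads NKX2-1, it names no clone and it has no replicate, so it allows no comparison of genotypes. No gene expression was measured in these libraries.

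The TCR itself has no signalling domain. On the T-cell surface it is held together with the CD3 chains, whose cytoplasmic tails carry tyrosine motifs that LCK phosphorylates. ZAP70 binds the phosphorylated tails and in turn phosphorylates LAT, a membrane scaffold for downstream enzymes, while PTPRC removes the inhibitory phosphate from LCK. Immature thymocytes signal through a pre-TCR, in which the PTCRA product pairs with the rearranged beta chain before the alpha chain is made. H3K27ac is found at promoters and enhancers in use, and these genes are among the defining markers of the T lineage (PTPRC of nearly all blood cells).

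The peak lists used here hold no reads, so depth is unknown. On chromosomes 1 to 22, X and Y the number of peaks ran from 810 (C12) to 934 (S36) in KO clones and from 742 (WT13) to 1144 (WT10) in WT clones, and was 9857 for H3K27ac. S36 and WT10 stood apart from the other 6 in how close their peaks lay to H3K27ac. Of the S36 peaks 8.57% lay within 1 kb of an H3K27ac peak, of the WT10 peaks 10.3%, and of the peaks of the other libraries 0.539% (WT13) to 4.34% (WT28). Each peak carries a fold enrichment at its summit over the peak caller's background, which is the authors' value and is called fold enrichment below.

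Every one of the 9 TCR genes had an H3K27ac peak in its window, and 8 of them had a peak that overlapped the gene body, all but PTCRA. Among all protein-coding genes the shares were 44.8% for the window and 21.2% for the gene body. The windows of the 9 genes held 29 distinct H3K27ac peaks in 7 separate stretches of the genome, because the CD3E, CD3D and CD3G windows on chromosome 11 overlap and share the same 5 peaks. Of the 29, 14 overlapped the body of a TCR gene, 8 overlapped only a neighbouring gene and 7 overlapped no protein-coding or lncRNA gene. The median number of peaks was 5.00 per window for the 9 genes and 0 for all protein-coding genes. The windows were of like length, with a median of 111444 bp for the 9 genes and 124115 bp for all. In covered length, the median was 3236 bp of H3K27ac peak per window against 0 bp. The fold enrichment of the 29 peaks ran from 4.71 to 11.8 with a median of 6.43, and that of all 9857 peaks had a median of 6.19. With 1 library these are descriptions without a test.

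**Figure D1:**
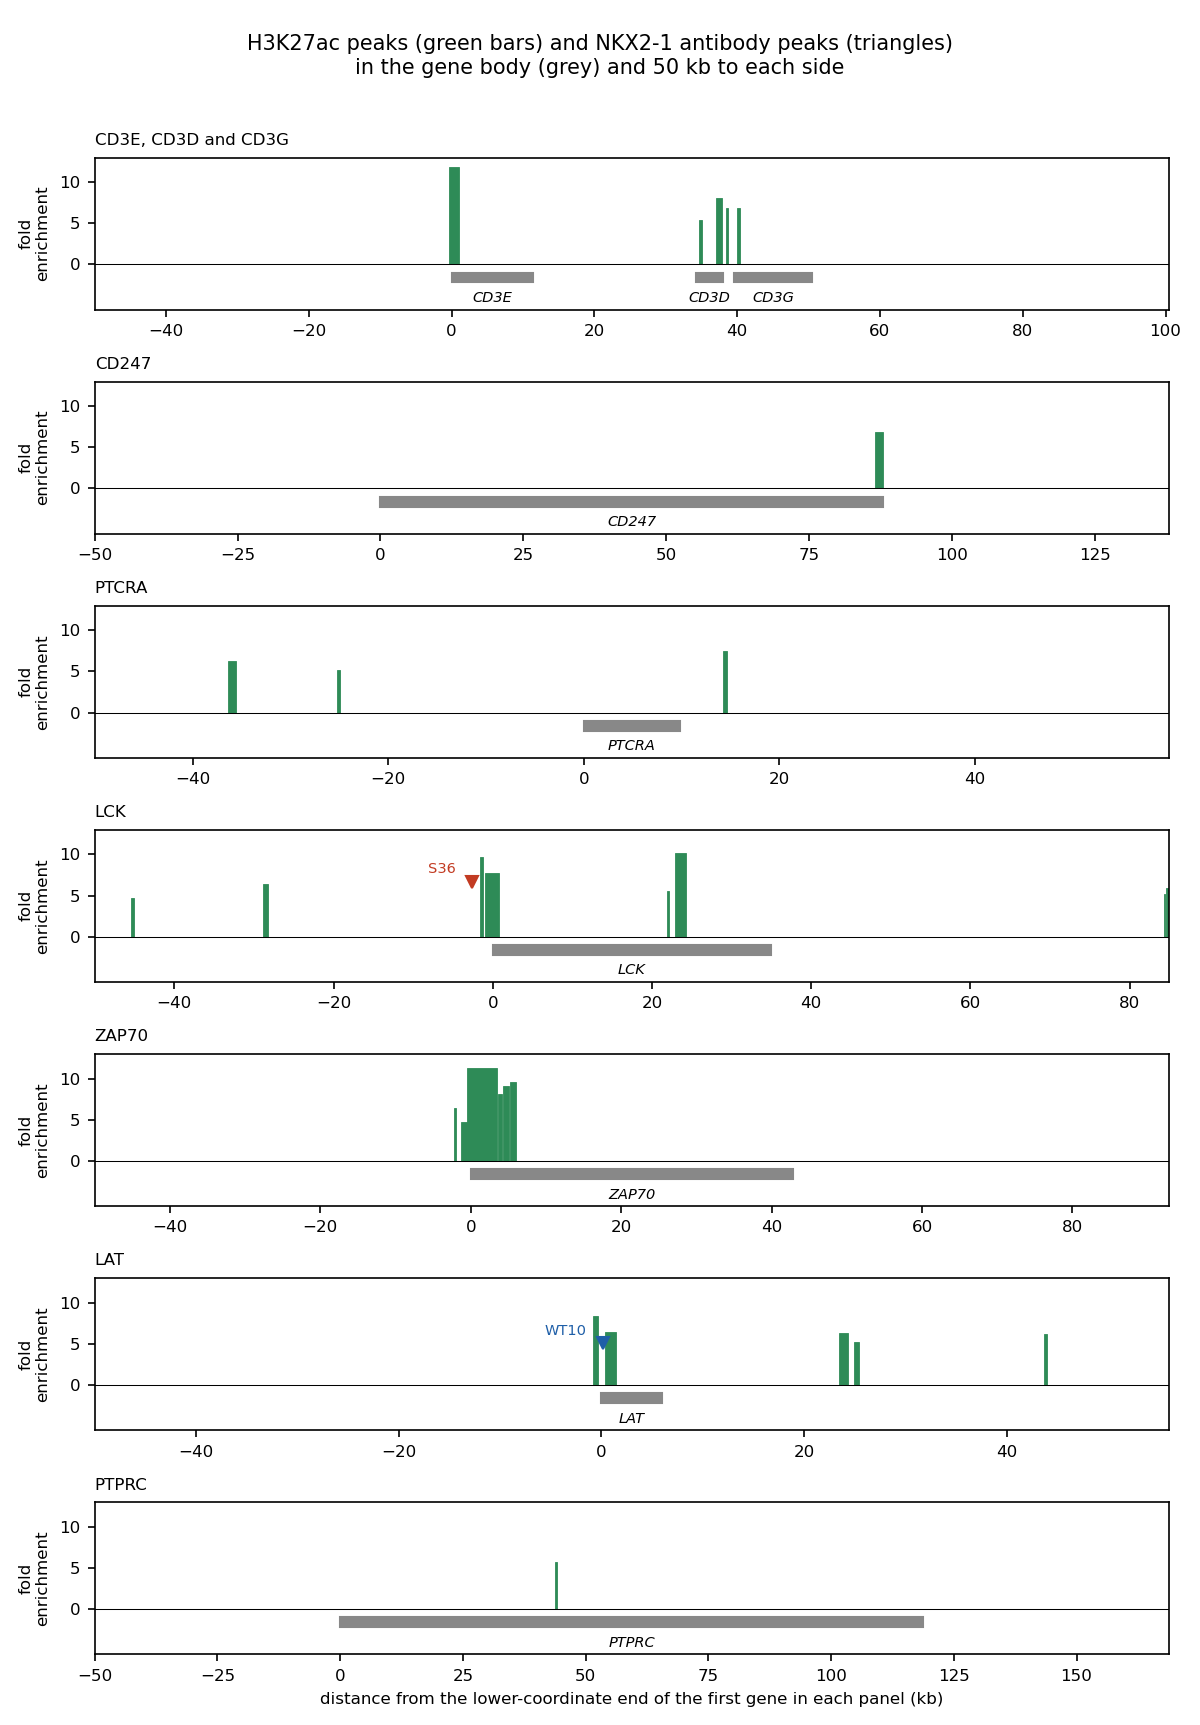
Peaks in the 7 separate windows. The x axis is the distance in kb along the chromosome from the lower-coordinate end of the gene (of CD3E in the top panel), the y axis the deposited fold enrichment, green bars the H3K27ac peaks (outlined, so that narrow ones can be seen), grey boxes the gene bodies, and triangles the NKX2-1 antibody peaks with the clone that called them. The tallest bars stand at the CD3E start (11.8), over the ZAP70 start (11.3) and inside LCK (10.2), and the only triangles are those of S36 below LCK and WT10 at LAT.

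Of the CD3 chains, CD3E (chromosome 11, 118304730 to 118316173) carried the highest enrichment of all 29 peaks. CD3E encodes the epsilon chain, which pairs with both the delta and the gamma chain. Its peak (118304349 to 118305691, 1343 bp wide, 11.8-fold) covered the lower-coordinate end of the gene, which is the end where its transcription starts, and 389 of the 9857 H3K27ac peaks were higher. CD3D (118338954 to 118342705) and CD3G (118344344 to 118355161) encode the delta and gamma chains and are transcribed away from each other from a short shared stretch. Around that stretch lay 4 smaller peaks. The one at the CD3D start (118341793 to 118342610) had 8.08-fold enrichment. A peak inside CD3D (118339321 to 118339759) had 5.40-fold, one between the 2 genes (118343118 to 118343442) 6.92-fold, and one inside CD3G (118344745 to 118345055) 6.92-fold. No further H3K27ac peak lay in the 3 windows. CD247 (chromosome 1, 167430640 to 167518529) encodes the zeta chain, which carries more tyrosine motifs than the other CD3 chains and lies apart from them in the genome. Its window of 187890 bp held 1 peak (167517234 to 167518481, 1248 bp, 6.92-fold), which ended 48 bp short of the gene's start.

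PTCRA (chromosome 6, 42916053 to 42925838) was the one member with no H3K27ac peak on its body. The 3 peaks of its window lay in neighbours: in RPL7L1 (42879649 to 42880463, 6.25-fold), in PEX39 (42890798 to 42891087, 5.14-fold) and in CNPY3 and its read-through gene CNPY3-GNMT (42930238 to 42930698, 7.48-fold). The CNPY3 peak was the nearest, 4400 bp above the upper end of PTCRA and 14185 bp from its start.

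LCK, the kinase that phosphorylates the CD3 tails, had 8 H3K27ac peaks in its window, more than any other member, and 97.4% of protein-coding genes had fewer. The gene (chromosome 1, 32251265 to 32286165) is known to be read from a distal and a proximal promoter, and the promoter table holds a start for each, at 32251265 and 32274121. A peak covered the distal start (32250293 to 32252028, 1736 bp, 7.72-fold), with another just below it (32249650 to 32250088, 9.74-fold). At the proximal start a broad peak began 60 bp downstream (32274181 to 32275501, 1321 bp, 10.2-fold), and a narrow one ended 705 bp upstream (32273206 to 32273416, 5.61-fold). Both starts thus had a peak over or beside them. The other 4 peaks lay 28199 to 49677 bp away in IQCC, EIF3I and MARCKSL1, with 4.72-fold to 6.42-fold enrichment, and MARCKSL1 is overlapped by the lncRNA gene LOC124903949 there.

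ZAP70, the kinase that docks on phosphorylated CD3 chains, had the broadest H3K27ac domain of the set. Its 6 peaks lay side by side from 97711365 to 97719618 on chromosome 2, a stretch of 8254 bp of which 7355 bp (89.1%) were inside peaks, and 98.6% of protein-coding genes had less covered length in their windows. The central peak (97713119 to 97717056) was 3938 bp wide with 11.3-fold enrichment. It covered 2 of the 3 RefSeq starts of the gene (97713576 to 97756364), at 97713576 and 97713882, and only 38 of the 9857 H3K27ac peaks were wider. Downstream of it, inside the gene, followed peaks of 8.14-fold, 9.12-fold and 9.61-fold, and upstream lay 2 of 4.71-fold and 6.43-fold. The third start, at 97733300, lay 13682 bp from the nearest peak.

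LAT (chromosome 16, 28984803 to 28990784), the scaffold that ZAP70 phosphorylates, had 5 H3K27ac peaks in its window. A peak at the upper end of the neighbouring gene SPNS1 (28984016 to 28984503, 8.39-fold) and one inside LAT (28985210 to 28986208, 6.43-fold) flanked both LAT starts, at 28984803 and 28985052. The remaining 3 lay in sequence without a protein-coding or lncRNA gene, 17465 to 37721 bp above LAT, with 5.21-fold to 6.28-fold enrichment.

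PTPRC (chromosome 1, 198638713 to 198757476), which encodes the phosphatase CD45, had the least H3K27ac of the 9. Its window of 218764 bp, the longest, held 1 peak (198682438 to 198682828, 391 bp, 5.70-fold), inside the gene and 43398 bp from the start in the promoter table. No peak was called at that start, and 64.8% of protein-coding genes had less covered length in their windows, against 84.5% for CD247, the other member with exactly 1 peak.

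Most starts of these genes lay at or beside an H3K27ac peak. Of the 7 members with a start in the promoter table, 2 (LCK and ZAP70) had a start inside a peak and 5 (with CD3D, CD247 and LAT) a start within 1 kb of one. Among the 15843 protein-coding genes of that table the shares were 6.69% and 20.8%, and the median distance was 88219 bp. CD3E and CD3G had no row in the table. By their lower-coordinate ends, CD3E lay inside a peak and CD3G 401 bp from one. The CD3D, LAT and proximal LCK starts were not inside peaks but in gaps between a pair of them. CD3D had its flanking peaks at 95 and 413 bp, LAT at 300 and 407 bp from its lower start, and proximal LCK at 705 and 60 bp.

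**Figure D2:**
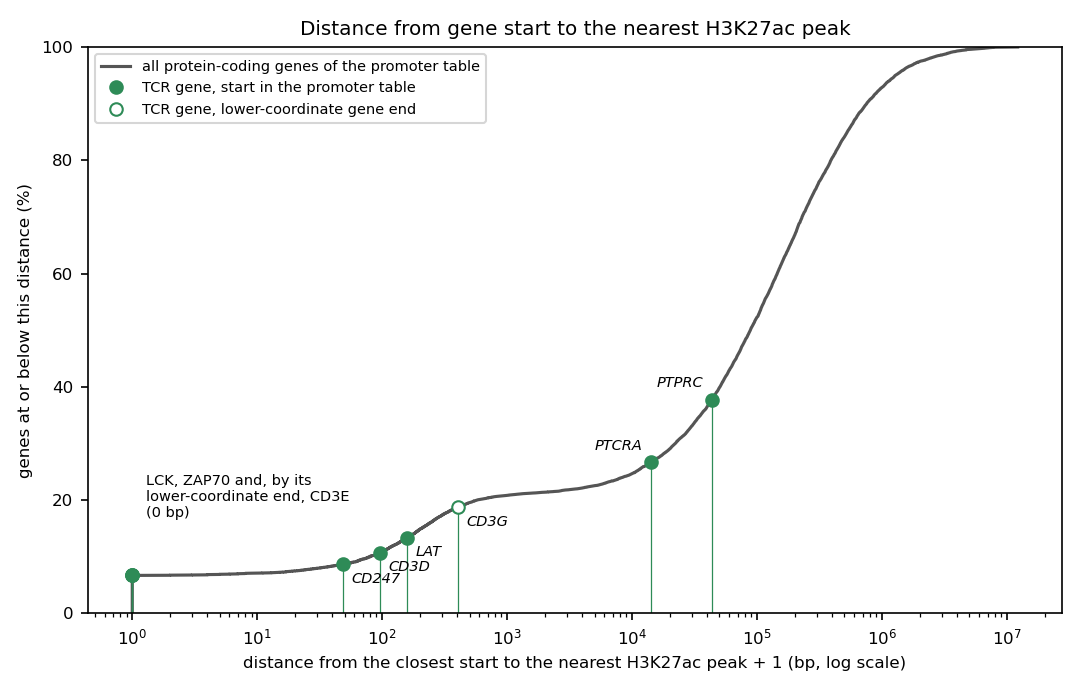
Distance from a gene's closest start to the nearest H3K27ac peak (x axis, bp plus 1, log scale) against the share of the 15843 protein-coding genes of the promoter table at or below that distance (y axis, percent; grey line). Green points are the 9 TCR genes placed on that line (the line under each drops to the x axis), filled where the start is from the promoter table and open where the lower-coordinate gene end was used; those at 0 bp coincide. All but PTCRA (14185 bp) and PTPRC (43398 bp) lie at or below 401 bp.

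The letters just upstream of 5 of these starts are shown to let starts in or beside a peak (CD3D, both LCK starts, ZAP70) be read beside the PTCRA start, which lacked a nearby peak. Each is the 250 bases before the start, 5′ to 3′ on the gene's own strand, from RefSeq on GRCh38.p14. Capitals mark exact matches, on either strand, to words that stand for 5 families of factors: TGTGGT for RUNX, AGGAAG for ETS, CACTTG and CTCAAG for NKX2-1, CAGCTG for E-box proteins and AGATAA for GATA.
CD3D (chr11:118342706-118342955, minus strand): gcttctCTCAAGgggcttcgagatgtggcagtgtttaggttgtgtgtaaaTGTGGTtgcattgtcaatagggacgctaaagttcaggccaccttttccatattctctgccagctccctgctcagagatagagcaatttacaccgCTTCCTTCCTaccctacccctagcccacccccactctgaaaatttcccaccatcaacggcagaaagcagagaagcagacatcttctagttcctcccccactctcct
LCK distal (chr1:32251015-32251264, plus strand): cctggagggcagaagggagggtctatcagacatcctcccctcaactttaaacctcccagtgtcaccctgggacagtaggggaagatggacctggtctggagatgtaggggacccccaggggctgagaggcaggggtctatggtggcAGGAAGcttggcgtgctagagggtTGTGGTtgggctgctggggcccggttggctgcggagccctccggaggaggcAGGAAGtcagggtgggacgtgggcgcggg
LCK proximal (chr1:32273871-32274120, plus strand): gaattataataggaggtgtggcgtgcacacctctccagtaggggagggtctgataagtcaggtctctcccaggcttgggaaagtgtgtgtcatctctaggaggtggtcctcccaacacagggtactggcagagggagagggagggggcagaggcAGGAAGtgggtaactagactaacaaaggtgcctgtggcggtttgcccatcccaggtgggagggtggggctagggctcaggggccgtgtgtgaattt
ZAP70 (chr2:97713326-97713575, plus strand): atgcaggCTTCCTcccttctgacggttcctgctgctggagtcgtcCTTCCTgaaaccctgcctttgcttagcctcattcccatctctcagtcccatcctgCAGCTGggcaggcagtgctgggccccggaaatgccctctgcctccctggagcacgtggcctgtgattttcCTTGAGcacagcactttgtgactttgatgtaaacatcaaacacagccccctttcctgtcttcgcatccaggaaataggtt
PTCRA (chr6:42915803-42916052, plus strand): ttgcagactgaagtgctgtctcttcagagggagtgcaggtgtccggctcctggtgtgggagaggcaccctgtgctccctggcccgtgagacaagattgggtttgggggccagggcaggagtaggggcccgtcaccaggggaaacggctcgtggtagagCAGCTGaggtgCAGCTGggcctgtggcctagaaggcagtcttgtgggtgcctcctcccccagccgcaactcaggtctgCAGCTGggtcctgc

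The RUNX word was found at CD3D (200 bases upstream of the start) and at the distal LCK start (80 bases), and 11.0% of the 35116 promoters of the table hold it in the same 250 bases. The ETS word, held by 28.7% of promoters, did not separate starts with a nearby H3K27ac peak from those without. It occurred at 106 and 102 bases upstream of CD3D, where the matches share 2 letters, at 104 and 29 bases upstream of distal LCK, at 96 bases upstream of proximal LCK and at 243 and 205 bases upstream of ZAP70, and was not found at PTCRA. Among starts not printed, CD247 (136 and 52 bases) had it, but so did PTPRC (159, 100 and 56 bases), whose start had no peak nearby. Of all promoters, 293 (0.834%) hold the ETS word 3 or more times. Neither LAT start, each within 1 kb of a peak, had it, nor did the other two ZAP70 starts. Of the NKX2-1 words, CTCAAG was found at CD3D (244 bases) and, on the other strand, at ZAP70 (80 bases), against 10.4% of promoters. CACTTG, held by 9.50%, was found in none of the 5. The E-box word was found at ZAP70 (150 bases) and 3 times at PTCRA (92, 81 and 14 bases). Of the starts not printed, it was also found at the upper LAT start (28985052, 173 bases) and the third ZAP70 start (97733300, 178 bases); 14.0% of promoters hold it at least once and 35 promoters (0.0997%) hold it 3 or more times. The GATA word (9.17% of promoters) was found in none of the 5. The ZAP70 start at 97713882, inside the 11.3-fold peak, had none of the 6 words. CAGCTG reads the same on both strands, and the NKX2-1 words can share letters. These are matches of letters, not binding sites.

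In the windows of the 9 genes, 1 NKX2-1 antibody peak was called in the KO libraries and 1 in the WT libraries, each in a single clone. In KO clones the gene was LCK, 1 of the 9, against 3.39% of all protein-coding genes with a peak in at least 1 KO library. In WT clones it was LAT, again 1 of 9, against 3.38% of all genes with a peak in at least 1 WT library. A count of 1 is the smallest above 0 that 9 genes can give, and nothing about the 9 is read from it. The other 7 genes had 0 peaks in all 8 libraries.

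**Figure D3:**
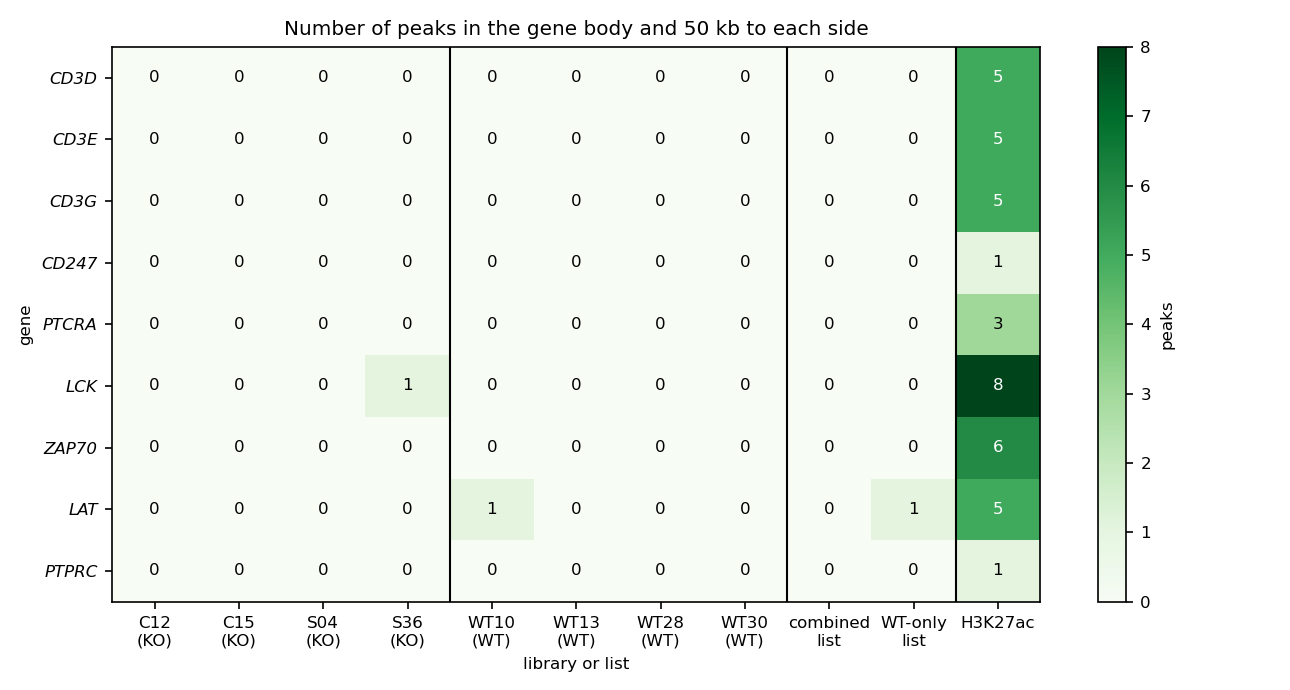
Number of peaks in the window of each gene (rows) in the 4 KO libraries, the 4 WT libraries, the authors' combined and WT-only lists and the H3K27ac library (columns); shading follows the printed number. Nonzero values outside the H3K27ac column stand at LCK in S36 and at LAT in WT10 and the WT-only list.

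In LCK's window the KO libraries C12, C15, S04 and S36 held 0, 0, 0 and 1 antibody peaks, and each of the 4 WT libraries held 0. S36 was the only library with a call, and the groups overlapped at 0. The mean was 0.250 ± 0.500 in KO and 0 ± 0 in WT libraries (SD, n = 4 each), a difference of 0.250 with an exact two-sided permutation p of 1.00. With a lone call among the 8 libraries every assignment gives a difference of this size. That p was therefore fixed in advance, and nothing is read from it. The S36 peak (chromosome 1, 32248531 to 32248801, 271 bp) had 6.69-fold enrichment, close to the median of 6.81 for that library. It overlapped the neighbouring gene FAM167B, 2464 bp below the distal LCK start and 849 bp below the nearest H3K27ac peak. In the other KO libraries the nearest antibody peak to LCK lay 11571 kb (C12), 22173 kb (C15) and 27205 kb (S04) away. In the WT libraries it lay 813 kb (WT10), 28074 kb (WT13), 3717 kb (WT28) and 813 kb (WT30) away.

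In LAT's window all 4 KO libraries held 0 antibody peaks, and the WT libraries WT10, WT13, WT28 and WT30 held 1, 0, 0 and 0. The call was thus in 1 WT clone, and here too the groups overlapped at 0. The mean was 0 ± 0 in KO and 0.250 ± 0.500 in WT libraries (SD, n = 4 each), a difference of -0.250 with an exact two-sided permutation p of 1.00. As at LCK, a lone call fixes that p in advance, and nothing is read from it. The WT10 peak (chromosome 16, 28984830 to 28985149, 320 bp, 5.03-fold) began 27 bp inside LAT and was weaker than most of its library, whose median was 5.90-fold. It lay wholly inside the 706 bp gap between the SPNS1 and LAT H3K27ac peaks, 327 bp above the lower and 61 bp below the upper, so that it overlapped neither. The nearest antibody peak of the KO libraries lay 4346 kb (C12), 4347 kb (C15), 4347 kb (S04) and 4346 kb (S36) from LAT, and in the other WT libraries 4346 kb (WT13), 5582 kb (WT28) and 4346 kb (WT30). That these calls came from S36 and WT10, the libraries with the most peaks near H3K27ac, is a measured fact whose part in the result was not tested. Without both clones, a setting chosen after seeing the data, 0 of the 9 genes had an antibody peak in either genotype.

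**Figure D4:**
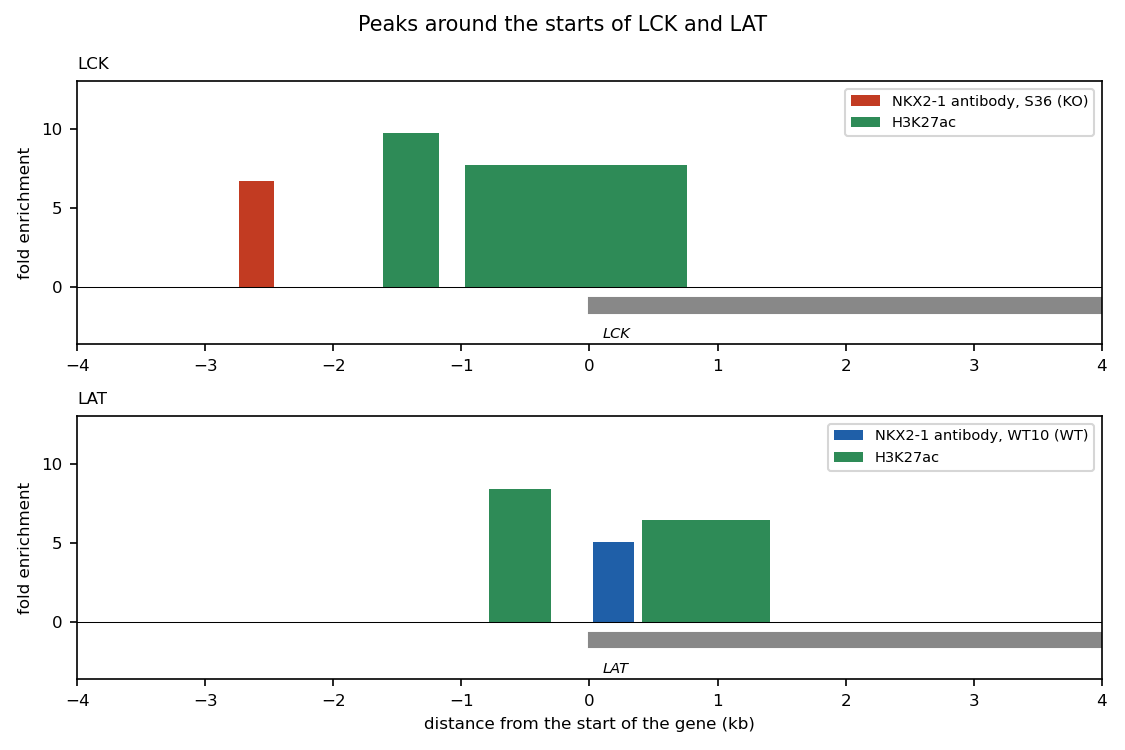
Peaks within 4 kb of the lower-coordinate end of LCK (top) and LAT (bottom). The x axis is the distance from the start of the gene in kb, the y axis the deposited fold enrichment; red is the S36 (KO) peak, blue the WT10 (WT) peak, green H3K27ac and grey the gene body. The WT10 peak stands in the 706 bp gap between the LAT H3K27ac peaks, and the S36 peak lies 849 bp outside the H3K27ac peaks of LCK.

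The promoter table covers 272 bp of the WT10 peak at LAT, and 30 bases of it, closest to the summit among the stretches with a match, hold a RUNX word on the other strand (50 bp from the summit) followed by an ETS word (57 bp). The only other match in those 272 bp was an E-box word 120 bp from the summit. Capitals mark the matches as above.
LAT under the WT10 peak (chr16:28985040-28985069, plus strand): ccggcgctcACCACAgCTTCCTgccgcagg

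The authors' own lists held little more at these genes. The combined list had 0 peaks in the 9 windows, against 1.68% of all protein-coding genes with such a peak. The nearest combined-list peak lay 273809 bp from PTPRC, 750311 bp from ZAP70, 813308 bp from LCK and 870096 bp from PTCRA, and over 1 Mb from the other 5 genes. The WT-only list had 1 region, at LAT, with the same ends as the WT10 peak; 2.40% of all protein-coding genes had a WT-only region in their windows. How the authors built that list is not given in the sources used here, and since it repeats the WT10 peak it is no separate evidence.

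From the other 7 genes the nearest antibody peak of each of the 8 libraries lay outside the window. For PTPRC the distance ran from 274 kb (WT10) over a median of 18044 kb to 50188 kb, and for PTCRA from 799 kb (WT10) over 12399 kb to 15975 kb. For CD247 it ran from 3604 kb (WT10 and WT28) over 9143 kb to 24155 kb, and for ZAP70 from 1408 kb (S36) over 3208 kb to 3208 kb. The CD3E, CD3D and CD3G distances began at 576, 550 and 537 kb, all to the same WT10 peak, with medians of 5846 to 5850 kb.

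Over all 20037 protein-coding genes, libraries with a peak in the window were compared between the 4 KO and the 4 WT clones by Fisher's exact test (two-sided). By that exact test 0 of the 9 genes passed (p = 1.00 for each, adjusted p = 1.00 by Benjamini-Hochberg over all genes). The share of all genes past an adjusted p of 0.05 was 0%, and 24 (0.120%) had an unadjusted p under 0.05, 11 higher in KO and 13 higher in WT, with none of the 9 among them. The smallest p that 4 against 4 libraries can give is 0.0286, so no gene could pass adjustment here. An uncalled site is one not called at that library's unknown depth. Each clone gave 1 library, so these p-values cover the spread between clones, which may be technical in part. At the 9 genes, with at most 1 call each, the p is fixed by that number of calls and measures no such spread.

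The call patterns at LCK and LAT were shared by many genes. Outside the 9 windows, 311 genes (1.55%) had a call in S36 and in no other of the 8 libraries. Those with the closest fold enrichment to LCK's 6.69 were ETS1 (6.69), ADGRE1 (6.68) and VAV1 (6.68). Likewise 246 genes (1.23%) had a call in WT10 alone, and those closest to LAT's 5.03 included RGS16 and RGS8 (5.09 each).

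The other genes of the TCR pathway carried H3K27ac less often than the 9, and more often than genes in general, as counts without a test. Of 45 listed TCR signalling genes, 22 (48.9%) had an H3K27ac peak on the gene body and 31 (68.9%) in the window, with a median of 1.00 peak per window. The highest peaks on a gene body lay in LCP2, a cytosolic adaptor recruited to LAT (12.8-fold), UBASH3B, a phosphatase of the UBASH3 family (12.8-fold), PTPN6, the phosphatase SHP-1 (9 peaks on its body, the highest between those of UBASH3B and PLCG1), and PLCG1, the phospholipase that docks on LAT (11.8-fold). They were followed by the adaptor LAX1 (10.5-fold), the diacylglycerol kinase DGKZ (9.61-fold), UBASH3A (9.61-fold) and the surface receptor CD5 (8.92-fold).

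NKX2-1 antibody peaks lay in the windows of 3 of the 45 genes in KO libraries and of 1 in WT libraries, beside 3.39% (KO) and 3.38% (WT) of all protein-coding genes, and the combined list had 0. Nothing about the 45 is read from counts this small. In KO clones these were PTPN22 (S04 and S36), VAV1 (S36) and LAX1 (S36), of which PTPN22 and VAV1 are named here after their values were seen. In WT clones it was LCP2 (chromosome 5, 170246233 to 170297777). Inside LCP2, WT10 had a peak at 170278531 to 170279026 (8.05-fold) and WT28 one at 170278563 to 170278877 (6.95-fold), and WT13, WT30 and the 4 KO libraries had none in the window. Both overlapped the 12.8-fold H3K27ac peak (170278769 to 170279773). The 1 WT-only region of the list has the ends of the WT10 peak. Of the 45 genes, 0 had calls in at least 3 libraries of 1 genotype and 0 of the other. Among all 20037 protein-coding genes, 35 had such calls in KO and 53 in WT libraries, so nothing is read from 0 of 45.

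Among the 6 constant genes of the TCR loci, the H3K27ac peaks were confined to the alpha/delta and beta loci. TRBC2 (19.9-fold, 142801543 to 142810605 on chromosome 7) and TRBC1 (16.7-fold, 142788529 to 142792890) had peaks on the gene body and 5 peaks in each of their overlapping windows. TRAC and TRDC had 2 and 3 peaks in their windows and 0 on the gene body, and TRGC1 and TRGC2 had 0 in their windows. No NKX2-1 antibody peak, combined-list peak or WT-only region fell in any of these windows. Among all protein-coding genes the shares were 3.39% (KO), 3.38% (WT), 1.68% (combined list) and 2.40% (WT-only list), so nothing is read from 0 of 6.

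For the B-cell receptor counterparts, the share with an H3K27ac peak on the gene body was 20.0% (3 of 15), beside 88.9% for the 9 TCR genes and 21.2% for all genes. The 3 were IGLL1 (10.1-fold, with 14 peaks in its window) and VPREB1 (6.68-fold), which encode the surrogate light chain of the pre-B-cell receptor, and the kinase BLK (7.41-fold). Of the B-cell marker genes, CD79A, CD79B, MS4A1 and CD22 had 0 peaks on the gene body. NKX2-1 antibody peaks lay in the windows of 1 of the 15 in KO libraries and of 2 in WT libraries, beside the same 3.39% and 3.38%, counts too small to read anything from.

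**Figure D5:**
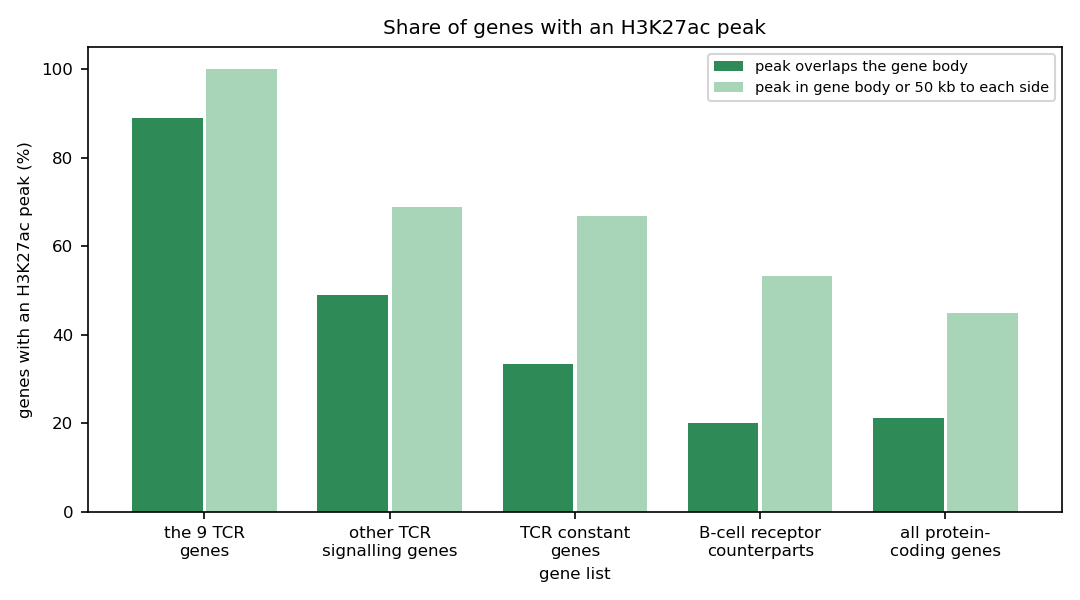
Share of genes (y axis, percent) with an H3K27ac peak on the gene body (dark) or in the window (light) for the 9 TCR genes, 45 other TCR signalling genes, 6 TCR constant genes, 15 B-cell receptor counterparts and all 20037 protein-coding genes. The 9 genes stand highest at 88.9% and 100%, and the B-cell counterparts lie near all genes at 20.0% and 53.3%.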

How the data were processed

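Per the submitters' processing notes, reads were handled with FastQC, Bowtie2, SAMtools, MACS2 and deepTools on build hg38. Their versions, parameters and filters and the control for peak calling are not given in the sources used here. Deposited were 1 peak list per library, a combined list and a WT-only list. The fold enrichment is a ratio and the −log10 q a further value per peak, both the authors' deposited values, and here they only rank, filter or describe peaks within a list. Files start counting at 0; coordinates here are 1-based.

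Peaks on chromosomes 1 to 22, X and Y that overlapped a window (gene body and 50 kb to each side) by 1 bp or more were counted with Python 3.11.15, pandas 2.3.3 and scipy 1.17.1. Gene positions came from RefSeq GRCh38.p14, the assembly hg38 names. The gene table has no strand or exons, so exon, intron and UTR were not assigned; strands and starts came from the promoter table. Window counting and the test were checked on simulated data.

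KO and WT libraries were compared by Fisher's exact test per gene across all genes, adjusted by Benjamini-Hochberg, and by exact permutation of the 8 libraries over 70 assignments. The members and lists were chosen with earlier results of these data known. Named genes were all 9 members, every TCR constant gene, list genes with a combined-list peak, a WT-only region or calls in at least 3 libraries of 1 genotype with 0 in its counterpart, the 8 TCR and 3 B-cell list genes with the highest H3K27ac peak on the gene body, and the 3 genes closest in call pattern. Promoters were planned for starts inside a peak; those of CD3D, proximal LCK and PTCRA, and the LAT letters, were added after the values were seen. Some genes that these rules name are not reported here. Windows, q thresholds and left-out libraries were varied.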

Additional observations from a re-analysis of the deposited data

Results flagged for a closer look

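In LCK's window, S36 held 1 NKX2-1 antibody peak where the other 3 KO libraries held 0, and in LAT's window WT10 held 1 where the other 3 WT libraries held 0. With counts of 0 and 1, any lone call stands apart in this way. The distance from LCK to the nearest antibody peak also stood apart in WT13 (28074 kb, against 813 to 3717 kb in the other WT libraries), and that from ZAP70 in S36 (1408 kb, against 3208 kb in the other KO libraries). For unrelated distances such gaps arise by chance in about 1 of 20 groups, and 18 groups of distances were examined. The 2 groups of counts examined each held a lone call, so that rate does not apply to them. Nor does it apply at ZAP70, where the nearest peaks of C12, C15 and S04 overlapped one another, so that any other distance stands apart.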

How the results depend on the processing

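No paired analysis was possible because the labels give no replicate numbers that KO and WT clones share. Across 91 values under alternatives, 73 kept their value or stayed within 1.5 times of it and 18 moved, and none reversed. The 73 include values that could not move, so the tally is no measure of robustness. These are the number of genes past the adjusted test, and calls of a genotype when a library of the opposite genotype was left out. On the gene body alone, H3K27ac peaks fell to 14, antibody-peak regions to 1 and genes with a KO call to 0. At a −log10 q of 10 or more, 6 H3K27ac peaks at 5 genes remained (the CD3D, CD3E and CD3G windows by the shared CD3E peak, LCK and ZAP70), with 1 antibody-peak region and 0 genes with a WT call. Among the 500 strongest peaks of each library there were likewise 1 region and 0 genes with a WT call. Leaving out 1 library at a time, genes with a KO call ranged from 0 (without S36) to 1, genes with a WT call from 0 (without WT10) to 1, and regions from 1 to 2. The LCK difference, KO minus WT, ranged from 0 to 0.333 and the LAT difference from -0.333 to 0. Without S36 and WT10 together, an alternative chosen after seeing the data, KO calls, WT calls and regions were all 0. Of the 9 genes, 0 passed the adjusted test in each alternative run, which the design fixes.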
